A study of Mus musculus with 56 samples.

Results

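The data described here are the RNA of mouse tibialis anterior muscle, the fast muscle at the front of the shin, heterozygous for the titin mechanical knock-out allele (HET mKO) and dissected 7 days after injection. Members were chosen by their labels alone: the 4 libraries of heterozygous muscle injected with an adeno-associated virus (AAV) and the 4 libraries of heterozygous muscle injected with saline (NaCl), 8 of the 56 libraries in the series. The virus encodes TEV protease fused to green fluorescent protein; TEV protease is an enzyme of tobacco etch virus that cuts proteins at its own recognition sequence. The rest of the series holds wild-type and homozygous mKO muscle, injected in the same way and dissected 3, 7 or 21 days later. Of these, the wild-type groups at day 7 (3 saline, 4 AAV) and the homozygous groups at day 7 (4 saline, 5 AAV) are used for comparison. Among the groups described, none received a virus without the protease, so virus and protease cannot be told apart here. Wild-type AAV muscle received both, so the comparison with it bears only on the cleavable allele. The labels do not say which cells the vector's promoter drives, or which libraries share an animal, and they give no age. The p-values therefore measure the spread between libraries, part of which may be technical. In the test across genes that spread is pooled within the 14 groups of all 56 libraries, days 3 and 21 included. All are whole-muscle RNA, in which fewer cells of a type and less RNA per cell cannot be told apart.

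Titin is the giant protein that spans from the Z-disc to the M-band of the sarcomere, acts as a spring that sets passive tension, and holds myosin filaments in register. In the mKO allele the spring region carries a site for TEV protease, so the protease severs titin made from that allele and its mechanical continuity is lost; in heterozygous muscle the wild-type allele still gives intact titin. Several genes are known as sensors of sarcomere tension, among them the ankyrin repeat proteins that bind the spring region of titin and the LIM proteins of the Z-disc and spring. No deposited value measures titin protein, so how much titin was cut is not known from these data.

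Transcripts of the viral transgene were present in all 4 heterozygous AAV libraries and close to absent from the saline ones. In normalised CPM (read counts scaled to the effective size of the library), the unit of every level below, the AAV libraries 1 to 4 held 96.2, 56.9, 113.6 and 79.86 (1711 to 2739 reads each). Of the saline libraries, 3 held 0 reads and saline 4 held 1. The groups did not overlap, with a difference of 6.36 on the log2(value + 1) scale (exact two-sided permutation test, p = 0.029, the smallest that 4 against 4 libraries allow; adjusted over 3 comparisons of the transgene, 0.029). The transgene level in heterozygous AAV muscle, 86.6 ± 24.1 (SD, n = 4), lay below that in wild-type AAV muscle, 240 ± 68.3 (n = 4), with a log2 difference of -1.46 (exact two-sided permutation test, p = 0.029, the smallest possible; adjusted 0.029). It lay above that in homozygous AAV muscle, 22.4 ± 5.39 (n = 5), by 1.89 (exact two-sided permutation test, p = 0.0079, the smallest possible; adjusted 0.024). The 3 genotypes thus differed in transgene RNA as well as in the number of cleavable alleles, and the part of transgene level in the differences between genotypes was not tested. The tissue label held in all 8 libraries: the summed level of 10 skeletal muscle fibre markers was 134524 to 138325 in saline libraries and 90508 to 121616 in AAV libraries.

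The transcriptome of heterozygous muscle changed broadly after the virus. Of 13017 genes tested, 5259 (40.4%) passed an adjusted p under 0.05: 2545 (19.6%) rose and 2714 (20.8%) fell, with a median log2 change of -0.005 over all genes. The shares of 19.6% and 20.8% are the ones to set beside each count of list members below. Adjusted p-values are those of limma on log2(value + 1), with Benjamini-Hochberg adjustment over all genes tested, and changes are given as log2 differences with their standard error. Most large changes were rises: 597 genes (4.59%) rose and 190 (1.46%) fell by 2-fold or more. The split between rises and falls depends on the scaling. The authors' scaling gives the AAV libraries effective sizes above their total reads and the saline libraries effective sizes below them, from 0.859 to 1.112 times the total, and under a plain scaling by total reads the median of all genes moved to 0.236, 4988 genes (38.3%) rose and 1014 (7.79%) fell. The libraries of the groups did not overlap for 5394 genes (41.4%), so a lack of overlap in a single gene is common here. Directions of gene groups that differ under that scaling, and counts that it moves by over 1.5 times, are given beside each group below. Depth was 20.7 to 27.1 M reads per heterozygous library. In the comparison groups, homozygous AAV 2 held only 6.9 M reads, the lowest of the series. The test was also run on simulated libraries, with the same assumed spread for every gene and 66 or 67 genes changed at each fold. There it recovered 34.3% of genes changed 1.5-fold, 85.1% of those changed 2-fold and 98.5% of those changed 4-fold. In the real data the spread differs between genes and far more genes passed, so these shares need not hold there.

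The largest rise on the log2(value + 1) scale, which understates the change of genes low in 1 group, was that of Ankrd1, which encodes an ankyrin repeat protein that binds the spring region of titin and moves to the nucleus in strained muscle (ENSMUSG00000024803, GRCm38 chr19:36111961-36120099, minus strand). Its level was 8.30, 4.17, 4.41 and 6.54 in saline libraries 1 to 4 and 293, 489.6, 451 and 611 in AAV libraries 1 to 4. Every AAV library stood far above every saline library, AAV 1 being the lowest of its group, and the log2 change was 6.07 ± 0.61, adjusted p = 1.13e-10. Second on that scale came Cilp, a secreted matrix protein of cartilage and heart that binds growth factors (ENSMUSG00000042254, GRCm38 chr9:65265180-65280605, plus strand). Cilp stood at 19.2, 26, 11 and 10.2 in saline libraries and 628, 538, 512 and 586 in AAV libraries (5.10 ± 0.40, adjusted p = 1.13e-13), with a narrow spread in the AAV group. Postn, the matricellular protein periostin made by activated fibroblasts (ENSMUSG00000027750, GRCm38 chr3:54361109-54391037, plus strand), went from 11.6, 10.1, 9.61 and 12.7 to 224, 464, 256 and 269.5 (4.61 ± 0.37, adjusted p = 2.92e-13), with AAV 2 the highest. Mustn1, a small nuclear protein of muscle, was at 37.2, 127, 47.7 and 36.1 in saline libraries and reached 700.1, 998, 926 and 987 after AAV (4.04 ± 0.37, adjusted p = 1.11e-11). Saline 2 was the highest of its group for Mustn1 and still lay below every AAV library.

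**Figure D1:**
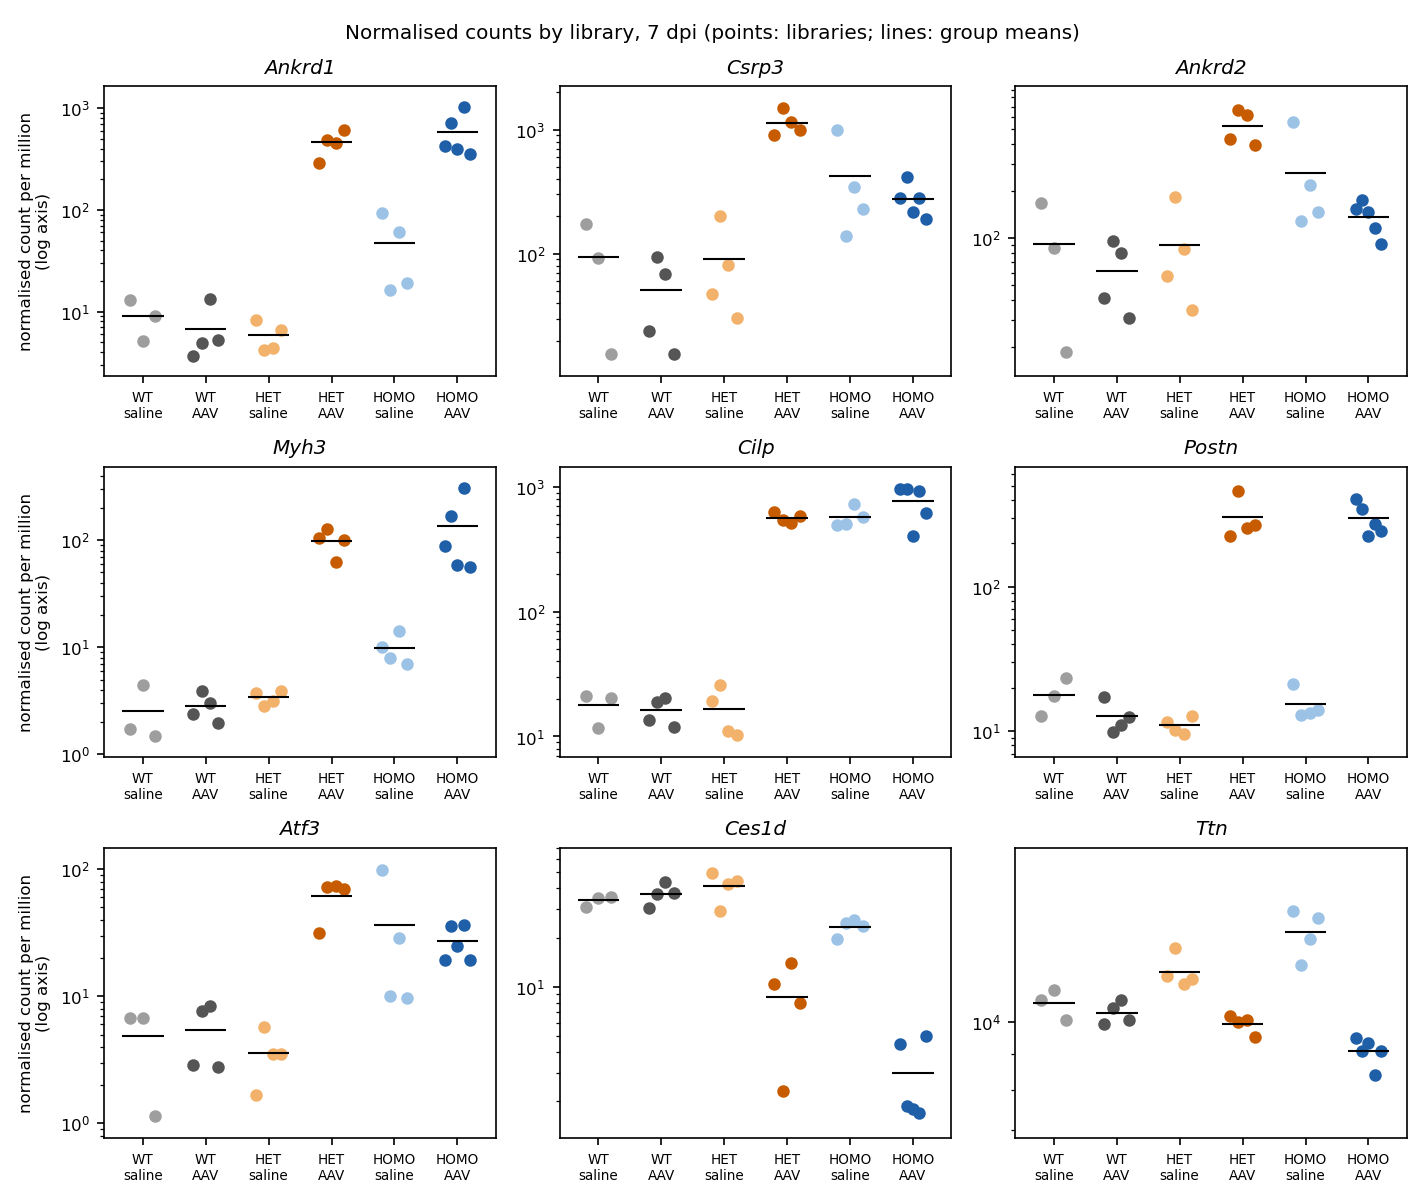
Normalised CPM (log axis) of 9 genes in each library at day 7, with points for libraries and lines for group means in wild-type (WT), heterozygous (HET) and homozygous (HOMO) muscle. Heterozygous AAV libraries lie above heterozygous saline libraries for the first 7 genes and below them for Ces1d, and wild-type AAV libraries overlap wild-type saline libraries for all 9.

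The other genes among the 15 largest rises fell into a few recognisable kinds. Myosins of the embryo and newborn were Myh3 and Myh8. Krt18, an intermediate filament keratin of simple epithelia (ENSMUSG00000023043, GRCm38 chr15:102028180-102032027, plus strand), was at most 0.341 in any saline library and reached 27.9, 11.8, 19.3 and 35.8 in AAV libraries (4.37 ± 0.45, adjusted p = 2e-10). By the plain ratio of group means Krt18 stood above Ankrd1, and Ankrd1 above Cilp. Csrp3, the LIM protein of the Z-disc, Rrad, a small GTPase that restrains calcium channels, and Sln, the sarcolipin that inhibits the calcium pump of the sarcoplasmic reticulum, rose by 3.97, 3.51 and 3.49. Atf3, a transcription factor induced by stress, stood at 1.66, 5.69, 3.50 and 3.50 in saline libraries and 31.3, 72.1, 74.2 and 69.6 in AAV libraries (3.77 ± 0.49, adjusted p = 3.7e-08), AAV 1 being well below the other AAV libraries. Myom3, a myomesin of the M-band found in slow and intermediate fibres, went from 33.4, 63.5, 34.5 and 20.6 to 359.7, 499, 440.5 and 457 (3.60 ± 0.39, adjusted p = 4.62e-10). The remaining members were Cpne2, a copine that binds membranes in response to calcium (3.92), Ttc9 (3.78) and Fam171b (3.59). All 15 kept their call when any of the 8 libraries was left out.

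Genes linked to titin and to stretch of the sarcomere rose together. Of 14 such genes on the list, 13 were tested (Nebl was not), 11 rose, 1 fell and 1 did not pass, with a median log2 change of 1.78, against 19.6% rising and a median of -0.005 over all genes. Ankrd1 led it. Csrp3 (ENSMUSG00000030470, GRCm38 chr7:48830398-48848033, minus strand), known as muscle LIM protein, was at 47.4, 203, 81.4 and 30.7 in saline libraries and 905, 1486, 1155 and 997 in AAV libraries (3.97 ± 0.68, adjusted p = 8.78e-06). Saline 2 was the highest saline library for Csrp3, and the groups did not overlap. Ankrd2 (ENSMUSG00000025172, GRCm38 chr19:42036000-42045110, plus strand), the second ankyrin repeat protein of the titin spring, was at 57.6, 184, 85.9 and 34.4 and 431, 661, 622 and 396 (2.76 ± 0.56, adjusted p = 0.000108), again with saline 2 highest among the saline libraries and no overlap.

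Xirp2, a Xin repeat protein that binds actin at sites of repair, had the smallest p of the list: 2643, 3147, 2404 and 2457 in saline libraries and 8070.3, 10048, 8289.6 and 10301 in AAV libraries (1.78 ± 0.15, adjusted p = 1.7e-12). Its close relative Xirp1 (2.65), the small heat shock protein Hspb7 (2.60), the actin crosslinker Flnc (1.71) and the LIM proteins Fhl1 (1.48) and Fhl2 (1.33), which bind the titin spring, rose as well. Nrap rose by 0.52, a call lost without any 1 of AAV 3, AAV 4, saline 3 or saline 4 (adjusted p up to 0.0797). The third ankyrin repeat protein of the spring, Ankrd23, went the other way (-0.84 ± 0.21, adjusted p = 0.0014), so the 3 members of that family did not move as a unit. Abra, an activator of serum response factor signalling, did not pass (0.32 ± 0.22, adjusted p = 0.26). Scaling by total reads gave 12 rises and 1 fall, and quantile normalization 11 and 1.

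The promoters of 3 of these rising genes are shown because their start regions hold letters known as binding motifs of factors that answer to mechanical load. The windows are the 250 bases before the first-listed transcription start in RefSeq (GRCm38.p6), 5′ to 3′ on the gene's strand: Ankrd1 at chr19:36119845-36120094 (minus strand), Fhl1 at chrX:56779433-56779682 (plus strand) and Fhl2 at chr1:43196762-43197011 (minus strand). Capitals mark the M-CAT motif of TEAD factors (GGAATG) in Ankrd1 and the CArG box of serum response factor in Fhl1 and Fhl2.
Ankrd1: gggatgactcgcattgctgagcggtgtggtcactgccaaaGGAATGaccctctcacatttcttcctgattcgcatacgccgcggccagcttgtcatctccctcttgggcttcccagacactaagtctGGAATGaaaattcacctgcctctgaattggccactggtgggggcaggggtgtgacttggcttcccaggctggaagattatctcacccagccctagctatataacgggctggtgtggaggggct
Fhl1: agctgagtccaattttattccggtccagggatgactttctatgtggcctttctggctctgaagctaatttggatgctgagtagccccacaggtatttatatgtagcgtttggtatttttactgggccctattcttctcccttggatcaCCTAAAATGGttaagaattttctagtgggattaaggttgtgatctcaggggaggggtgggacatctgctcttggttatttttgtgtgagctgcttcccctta
Fhl2: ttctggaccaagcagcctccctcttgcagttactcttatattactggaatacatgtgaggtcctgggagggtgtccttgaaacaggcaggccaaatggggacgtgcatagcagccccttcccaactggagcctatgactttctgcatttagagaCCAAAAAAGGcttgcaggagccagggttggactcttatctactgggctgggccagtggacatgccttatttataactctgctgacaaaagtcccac
The Ankrd1 window held 2 M-CAT motifs, which begin 210 and 123 bases before the start. The CArG box began 102 bases before the start in Fhl1 and 96 bases before it in Fhl2. Searched on both strands, a CArG box was found in 2 of the 11 list members with a RefSeq promoter (18.2%) and in 378 of all 27025 promoters (1.4%). M-CAT was found in 2 of 11 (18.2%, Ankrd1 and Nebl) and in 3414 promoters (12.6%), and the AP-1 motif (TGANTCA) in 1 of 11 (9.09%, Xirp2) and in 1856 promoters (6.87%). Of the 15 largest rises, 12 had a RefSeq promoter, with a CArG box in 0, M-CAT in 1 (8.33%, Ankrd1) and AP-1 in 0. Of the 15 largest falls, 12 had one, with a CArG box in 0, M-CAT in 1 (8.33%, Magix) and AP-1 in 1 (8.33%, Lrtm1). A match is a description of these letters and not evidence of binding, and 11 or 12 promoters are few.

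Titin RNA itself and the genes of its direct binding partners showed no such common rise. Ttn (ENSMUSG00000051747, GRCm38 chr2:76703980-76982547, minus strand) stood at 11654, 12825, 11367 and 11537 in saline libraries and 10213, 9998, 10082 and 9539 in AAV libraries; every AAV library was below every saline library, but the log2 difference of -0.25 ± 0.13, adjusted p = 0.121 did not pass. Under quantile normalization the sign of Ttn turned, to 0.26 (adjusted p = 0.0362). Of 17 titin binding partners (Ttn included), 3 rose and 5 fell, against 19.6% and 20.8% over all genes, with a median of -0.23. The median turned to 0.05 under scaling by total reads (6 rises, 3 falls) and to 0.01 under quantile normalization (6 and 5). Those with the smallest p were Myom3, Trim55, a ubiquitin ligase that binds the M-band end of titin (-0.54 ± 0.09, adjusted p = 9.63e-06), the autophagy receptor Sqstm1 (0.65 ± 0.12, adjusted p = 1.26e-05), and Mybpc2, the fast form of myosin binding protein C (-0.88 ± 0.20, adjusted p = 0.000339). Of 16 Z-disc genes, 8 rose and none fell (median 0.38), led by the PDZ-LIM protein Pdlim3 (1.98 ± 0.18, adjusted p = 6.46e-12), the muscle intermediate filament desmin, Des (1.2 ± 0.11, adjusted p = 1.53e-11), and the chaperone of desmin, Cryab (2.04 ± 0.29, adjusted p = 2.45e-07). Myom1, the myomesin common to striated muscles, fell by 0.55 while Myom3 rose.

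Most contractile genes of the embryo and newborn were higher after AAV. Of 10 tested, 7 rose and none fell, with a median of 2.40. Their summed level overlapped between the groups, at 25584 to 32382.5 in saline libraries and 28090 to 34027 in AAV libraries. Embryonic myosin Myh3 (ENSMUSG00000020908, GRCm38 chr11:67078300-67102291, plus strand) went from 3.73, 2.80, 3.17 and 3.88 to 105, 127, 62.1 and 100.4 (4.46 ± 0.59, adjusted p = 5.27e-08). Perinatal myosin Myh8 went from 5.47, 8.41, 6.08 and 2.73 to 87.9, 148, 84.2 and 107 (4.05 ± 0.53, adjusted p = 5.27e-08). For both, every AAV library was far above every saline library. Myosin binding protein H, Mybph, rose by 2.20 ± 0.28, adjusted p = 3.97e-08, and Myl4, the light chain of embryonic muscle and atria, by 3.22 ± 0.47, adjusted p = 3.94e-07. Without AAV 4, 1 member of the list passed as a fall. Myosin heavy chain genes are near-identical copies, and reads shared between them were divided by the authors' estimation, so their separate values carry that uncertainty.

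Slow fibre genes rose in part and fast fibre genes fell in part. Of 11 slow fibre genes, 5 rose and none fell (median 1.36): the cardiac and slow calsequestrin Casq2 (1.55 ± 0.23, adjusted p = 7.86e-07), the slow troponins Tnnt1 (2.62 ± 0.54, adjusted p = 0.000134) and Tnni1 (2.89 ± 0.65, adjusted p = 0.000361), Myoz2 and the slow calcium pump Atp2a2. Tnnt1 was at 3.67, 5.06, 21.1 and 7.07 in saline libraries and 45.1, 59.6, 37.8 and 64.7 in AAV libraries, with saline 3 the highest of its group and no overlap. Slow myosin itself did not pass: Myh7 was at 3.18, 2.59, 70.8 and 12.5 in saline libraries and 16.5, 2.38, 3.67 and 5.06 in AAV libraries (-0.78 ± 1.12, adjusted p = 0.614), and saline 3 alone held more than any other library. The slow light chains Myl3 (-0.84 ± 0.53, adjusted p = 0.212) and Myl2 (1.36 ± 0.65, adjusted p = 0.094) did not pass either, though Myl2 did as a rise with a replicate block (adjusted p = 0.0323), under scaling by total reads (0.0409) and with only the compared groups in the fit (0.0319), where Myl3 passed as a fall (0.0123). Without saline 3 the count of slow fibre genes that rose was 7, and with only the compared groups 7 rose and 2 fell. The summed level of the 11 slow fibre genes did not rise, at 3841 to 4716 in saline libraries and 3340 to 4158 in AAV libraries. Of 14 fast fibre genes, 8 fell and 1 rose (median -0.41; 4 rose and 4 fell under scaling by total reads, and 2 rose and 5 fell under quantile normalization). The fast myosin Myh4 had the largest fall among them, from 49844, 43076, 49939.8 and 51564 to 23196, 13512, 28986 and 19440.4 (-1.24 ± 0.23, adjusted p = 2.98e-05), with every AAV library below every saline library. The fast calcium pump Atp2a1 (-0.93 ± 0.18, adjusted p = 4.67e-05), Mybpc2 and the calcium buffer parvalbumin, Pvalb (-0.70 ± 0.19, adjusted p = 0.00301), fell as well.

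The 15 largest falls were of genes of many kinds, enzymes of lipid and sugar metabolism among them. Ces1d, a carboxylesterase that hydrolyses triglycerides (ENSMUSG00000056973, GRCm38 chr8:93166068-93197838, minus strand), fell most, from 49.6, 29.0, 42.4 and 44.4 to 10.4, 2.31, 13.9 and 8.03 (-2.30 ± 0.38, adjusted p = 4.85e-06), AAV 2 being the lowest. Gpd1, the glycerol-3-phosphate dehydrogenase that links glycolysis to lipid synthesis, was even across saline libraries, at 687, 641, 641 and 632, and stood at 255, 134, 308 and 143 in AAV libraries (-1.72 ± 0.21, adjusted p = 1.53e-08). For both genes every AAV library was below every saline library, which the choice of the 15 largest falls required. Next in size were Klhl33 (-2.02), Fam57b, a ceramide synthase (-1.88), Magix (-1.88), Lrtm1 (-1.83), Chac1, a glutathione-degrading enzyme (-1.77), the lipid droplet protein Plin4 (-1.75), the transferrin receptor Tfrc (-1.74), Pfkfb1, a regulator of glycolysis (-1.62), G0s2, an inhibitor of triglyceride lipase (-1.62), Pm20d2 (-1.66), the potassium channel subunit Kcng4 (-1.63) and Vwa3b (-1.60). Arrdc2 is also among the 15 (-1.87 ± 0.74, adjusted p = 0.039), but its call was lost without any 1 of AAV 2, AAV 4, saline 1, saline 3 or saline 4 (adjusted p up to 0.129), and under edgeR, DESeq2 and scaling by total reads. Of 9 adipocyte markers, Lep was absent from the data, and Adipoq, Plin1, Cidec and Retn were below the filter, with at most 39 reads in any heterozygous library. Of the 4 tested, Lpl (-1.18 ± 0.26, adjusted p = 0.000308) and Fabp4 (-0.40 ± 0.15, adjusted p = 0.0336) fell and none rose (median -0.49). Under scaling by total reads or quantile normalization 1 fell, and with only the compared groups in the fit 3 fell. The summed level of these 4 was 3410 to 4075 in saline libraries and 2847 to 3165 in AAV libraries. The part of adipocytes in the falls of lipid genes was not tested.

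Genes of energy metabolism fell across several pathways. Of 25 nuclear genes of oxidative phosphorylation, 24 fell and none rose (median -0.62), against 20.8% falling over all genes. All 13 mitochondrially encoded genes fell (median -0.82). Of 22 fatty acid oxidation genes 17 fell and none rose (median -0.68), and of 21 glycolysis and glycogen genes 18 fell and none rose (median -0.65). Under scaling by total reads the falls were 20, 12, 14 and 14 in these 4 lists, and under quantile normalization 22, 6, 17 and 14, with no rise under either. The nuclear genes with the smallest p were the complex I core subunit Ndufs1 (-0.83 ± 0.10, adjusted p = 1.86e-08) and the complex II flavoprotein Sdha (-0.86 ± 0.11, adjusted p = 2.58e-08). Of the mitochondrial genome, mt-Nd5 changed by -0.93 ± 0.18, adjusted p = 3.17e-05 and mt-Nd2 by -0.94 ± 0.18, adjusted p = 5.52e-05. Cpt1b, which admits long-chain fatty acids to the mitochondrion, stood at 314, 307, 289.8 and 287 in saline libraries and 175, 115, 147 and 119 in AAV libraries (-1.12 ± 0.16, adjusted p = 3.71e-07). The glycogen genes Ppp1r3a, a phosphatase subunit that targets glycogen, and Phka1, a subunit of phosphorylase kinase, changed by -1.2 and -1.13. Ppargc1a, the coactivator that drives mitochondrial genes, fell too (-0.84 ± 0.18, adjusted p = 0.000285). Of 13 NAD and lipid enzyme genes 9 fell, Nampt, of the NAD salvage pathway, among them (-0.58 ± 0.08, adjusted p = 1.76e-07).

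**Figure D2:**
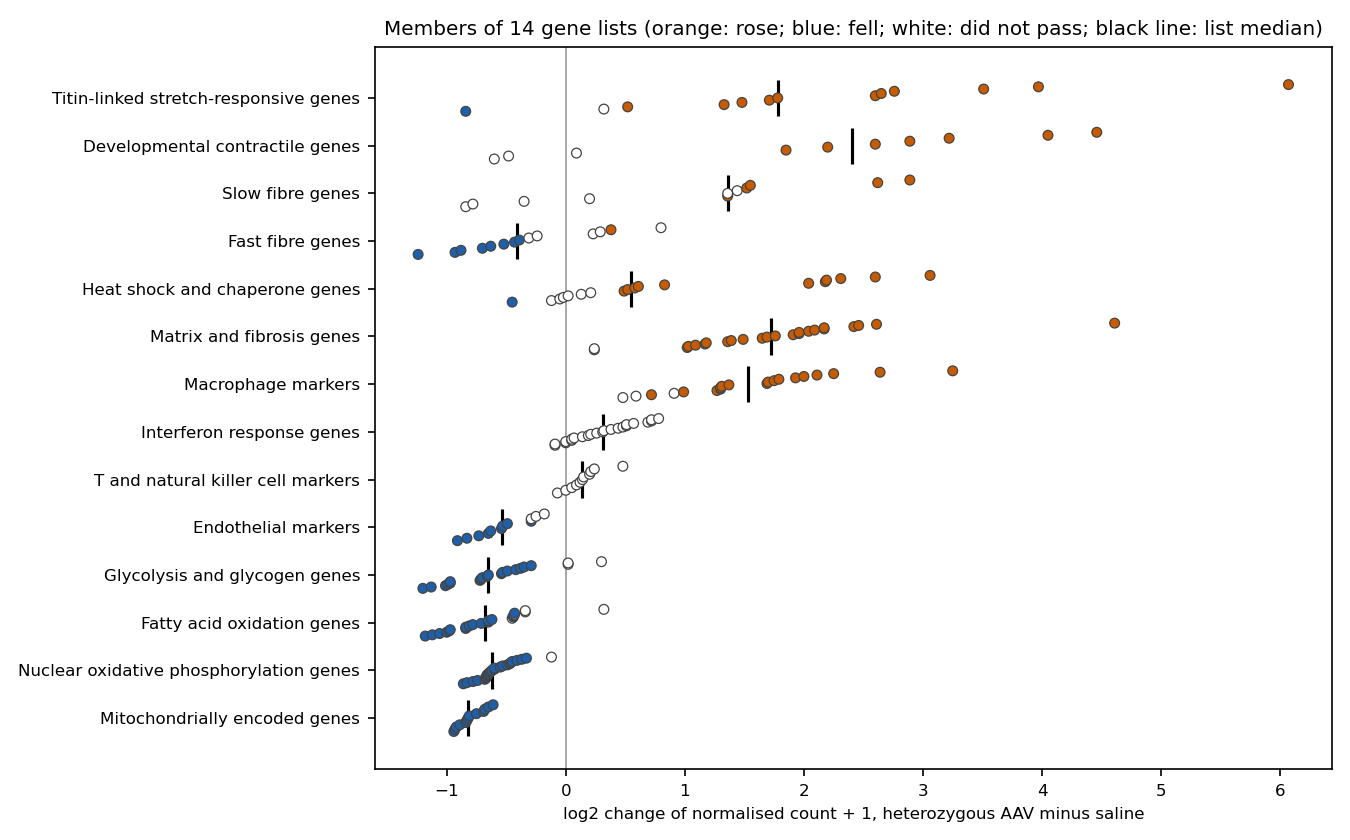
Log2 change (heterozygous AAV minus saline) of each tested member of 14 gene lists, with orange for members that rose, blue for those that fell, white for those that did not pass and a black line for the list median. Among the lists above interferon response, the medians lie to the right of 0 except that of fast fibre genes, which lies to the left. Interferon response and T and natural killer cell genes have only white points. The medians of the endothelial and metabolic lists at the bottom lie to the left.

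More heat shock, endoplasmic reticulum stress and p53 target genes rose than fell. Of 18 heat shock and chaperone genes, 11 rose and 1 fell (median 0.55; 14 rose and none fell under scaling by total reads). Hspb1, which protects actin and titin from aggregation, was at 69.0, 71.5, 75.6 and 71.8 in saline libraries and 376, 673, 766 and 693 in AAV libraries (3.06 ± 0.25, adjusted p = 2.92e-13). Its partner Hspb8, of chaperone-assisted autophagy, rose by 2.18 ± 0.16, adjusted p = 1.75e-14, whereas Hsp90ab1 rose by 0.58 ± 0.08, adjusted p = 1.61e-07. Of 18 genes of endoplasmic reticulum and integrated stress, 10 rose and 3 fell (median 0.28), led by Atf3 and by Psat1 of serine synthesis (1.58 ± 0.32, adjusted p = 0.000117); without AAV 4 or without saline 2, 7 rose and 2 fell. Of 12 p53 target genes 6 rose and 1 fell (median 0.47). Eda2r, a receptor of the tumour necrosis factor family known to rise in wasting muscle, had the smallest p: 7.43, 7.84, 10.2 and 11.8 in saline libraries and 81.2, 117, 105 and 132 in AAV libraries (3.41 ± 0.24, adjusted p = 1.75e-14). The cell cycle inhibitor Cdkn1a rose by 2.19 ± 0.29, adjusted p = 4.34e-08 and the apoptosis regulator Bax by 0.73 ± 0.13, adjusted p = 2.55e-05. The p53 target Ccng1 fell (-0.49 ± 0.11, adjusted p = 0.000271).

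The ubiquitin ligases used as markers of atrophy did not move together. Trim63, known as MuRF1, which binds titin at the M-band, was at 130.1, 120.0, 135 and 160.1 in saline libraries and 189, 193, 229.9 and 271 in AAV libraries (0.68 ± 0.17, adjusted p = 0.000854), and every AAV library was above every saline library. Fbxo32, known as atrogin-1, did not pass (-0.32 ± 0.28, adjusted p = 0.373). Of the 15 genes of muscle atrophy and ubiquitin ligases, 7 rose and 1 fell (median 0.27), with Eda2r, the proteasome subunit Psmd11 (1.16 ± 0.12, adjusted p = 2.15e-10) and the metallothionein Mt2 (2.26 ± 0.44, adjusted p = 6.13e-05) at the lowest p.

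Most genes that muscle switches on when it loses its nerve rose, and some genes of satellite cells and myogenesis did. Of 14 denervation and neuromuscular junction genes 9 rose and none fell (median 0.96). The adhesion molecule Ncam1 was at 6.78, 8.25, 6.84 and 7.36 in saline libraries and 64.4, 65.5, 62.7 and 79.0 in AAV libraries (3.05 ± 0.31, adjusted p = 1.16e-10). The transcription factor Runx1 rose by 2.54 ± 0.31, adjusted p = 1.19e-08 and the acetylcholine receptor subunit Chrnb1 by 1.02 ± 0.14, adjusted p = 2.29e-07. Of 13 satellite cell and myogenic genes 6 rose and 1 fell (median 0.46; 9 rose and none fell under scaling by total reads). Of 7 markers of satellite cells 3 rose and 2 fell (5 and 1 under scaling by total reads), against 19.6% and 20.8% over all genes. The summed level of these markers was 78.5 to 83.0 in saline libraries and 87.5 to 93.9 in AAV libraries. Myogenin, Myog, which drives myoblasts to differentiate, was at 2.20, 6.84, 4.65 and 5.04 and 31.0, 45.8, 36.6 and 50.2 (2.93 ± 0.42, adjusted p = 2.72e-07), and Mymk, the membrane protein of myoblast fusion, at 0.0816, 0.55, 0.119 and 0.265 and 10.1, 14.7, 9.89 and 10.7 (3.30 ± 0.49, adjusted p = 6.59e-07); for neither gene did the groups overlap. Of 14 proliferation genes 11 rose and none fell (median 1.01), with Mki67 at 0.68, 0.917, 1.12 and 1.04 and 5.48, 10.4, 5.29 and 6.36 (1.99 ± 0.37, adjusted p = 3.53e-05).

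At the membrane and the calcium stores the changes were mixed. Of 15 calcium handling genes 3 rose and 8 fell (median -0.35; 5 rose and 3 fell under scaling by total reads, and 5 fell without saline 4). Sln stood at 0.626, 0.603, 0.691 and 0.458 in saline libraries and 10.5, 29.7, 12.2 and 20.6 in AAV libraries (3.49 ± 0.45, adjusted p = 4.3e-08), while the junctophilin Jph2, which ties the membrane to the calcium store, changed by -0.73 ± 0.14, adjusted p = 7.11e-05. Of 14 genes of the dystrophin complex 5 rose and 3 fell, against 19.6% and 20.8% over all genes. The falls were thus about as common as over all genes. Without AAV 2 or saline 4, 3 rose. Nos1, the neuronal nitric oxide synthase anchored by that complex, fell from 191, 157, 162 and 152 to 77.1, 48.3, 79.9 and 43.5 (-1.44 ± 0.21, adjusted p = 5.93e-07), with no overlap. The repair protein dysferlin, Dysf, rose (0.87 ± 0.11, adjusted p = 1.61e-08), as did the syntrophin Sntb1 (1.82 ± 0.30, adjusted p = 4.6e-06). Of 16 genes of cytoskeletal repair and membranes 13 rose and none fell (median 0.93). Tubb6, a tubulin of regenerating and dystrophic fibres, was at 9.55, 15.4, 12.2 and 10.6 and 123, 159, 145 and 142 (3.48 ± 0.35, adjusted p = 1.53e-10), and Krt8, the partner of Krt18, rose by 3.12 ± 0.33, adjusted p = 2.78e-10.

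Matrix genes rose nearly without exception. Of 24 matrix and fibrosis genes 22 rose and none fell (median 1.73). Fibrillar collagen Col1a1 went from 159, 138, 101 and 79.0 to 444, 872, 586 and 717 (2.46 ± 0.34, adjusted p = 1.36e-07) and Col3a1 rose by 2.42 ± 0.26, adjusted p = 3.54e-10; Bgn, Col5a2 and the collagen crosslinking enzyme Lox (2.61 ± 0.32, adjusted p = 1.57e-08) rose with them. Of the 12 fibroblast markers, which include both collagens, 4 rose and 2 fell (8 and 1 under scaling by total reads, 7 and 2 with only the compared groups in the fit), and their summed level was 1166 to 1535 in saline libraries and 2411 to 3569 in AAV libraries. The part of fibroblast number in these rises was not tested. Among 14 growth factor genes 7 rose and 1 fell, with Igf2, a growth factor of development and regeneration, at 23.4, 24.1, 15.9 and 21.0 and 190.2, 237, 104 and 206 (3.02 ± 0.37, adjusted p = 1.01e-08), and the RNA of the neighbouring imprinted gene, H19, up by 1.85 ± 0.27, adjusted p = 4.24e-07.

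Most macrophage genes rose, while no T or natural killer cell marker and no interferon response gene passed. Of 20 macrophage markers 17 rose and none fell (median 1.53; 14 to 18 rose when 1 library was left out), and their summed level was 74.4 to 128 in saline libraries and 276 to 518 in AAV libraries. Cd68, of macrophage lysosomes, went from 1.71, 2.44, 2.03 and 2.44 to 14.1, 27.1, 16.8 and 18.5 (2.64 ± 0.41, adjusted p = 1.14e-06), and Adgre1, which encodes F4/80, from 2.53, 1.34, 2.31 and 2.68 to 9.13, 14.2, 8.06 and 14 (1.93 ± 0.36, adjusted p = 2.71e-05). Lgals3 rose by 3.25 ± 0.47, adjusted p = 3.98e-07. With them rose 7 of 13 complement genes (C1qc 1.75 ± 0.36, adjusted p = 0.000112; 11 under scaling by total reads, and 10 with 1 falling when only the compared groups were in the fit), 6 of 12 chemokine genes, with 1 falling (Cx3cl1 2.07 ± 0.37, adjusted p = 1.39e-05; no fall under scaling by total reads), and 7 of 16 antigen presentation genes, led by class II genes (H2-Eb1 1.56 ± 0.34, adjusted p = 0.00021). The H2 genes are close copies of each other, with the same uncertainty as the myosins. The summed level of the 12 chemokine genes did not rise, at 149 to 174 in saline libraries and 138 to 167 in AAV libraries. None of 11 T and natural killer cell markers passed (median 0.14), though DESeq2 called 1 rise. Their summed level was 1.44 to 3.84 in saline libraries and 2.53 to 6.52 in AAV libraries. At such low levels the log2(value + 1) scale understates changes, and the median was 0.74 by edgeR and 0.78 by DESeq2. A rise of these markers could thus have been missed. Cd8a differed by 0.15 ± 0.34, adjusted p = 0.759. Of 3 B and plasma cell markers, Ighm, the heavy chain of immunoglobulin M, fell (-1.08 ± 0.39, adjusted p = 0.0232; 0.0901 under scaling by total reads) and the other two did not pass. None of 23 interferon response genes passed (median 0.31), while rises were called for 2 under scaling by total reads, 1 by edgeR, 3 by DESeq2 and 5 with only the compared groups in the fit. For Isg15 the values were 0.408, 0.445, 1.17 and 2.10 in saline libraries and 1.56, 1.28, 1.76 and 3.11 in AAV libraries (0.57 ± 0.37, adjusted p = 0.217), with AAV 4 the highest and an overlap between the groups. Neither of the 2 tested neutrophil markers passed by limma. Csf3r (0.83 ± 0.38, adjusted p = 0.0762) did so as a rise with a replicate block (adjusted p = 0.0481), with only the compared groups in the fit (0.00119), with a pseudocount of 0.25 (0.015), by edgeR (0.0136) and by DESeq2 (0.00464).

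Most endothelial markers fell. Of 12 endothelial markers 9 fell and none rose (median -0.54; 5 fell under scaling by total reads and 8 under quantile normalization), and their summed level was 591 to 622 in saline libraries and 362 to 443 in AAV libraries. The junction protein Cdh5 stood at 107, 113, 104 and 117 and 73.5, 62.2, 67.1 and 61.9 (-0.73 ± 0.15, adjusted p = 7.76e-05), and the growth factor receptor Kdr at 64.0, 56.9, 67.9 and 65.0 and 42.4, 25.4, 37.1 and 30.5 (-0.91 ± 0.19, adjusted p = 0.000146). Of 10 smooth muscle and pericyte markers 5 fell and 2 rose (2 and 2 under scaling by total reads), the rises being Cspg4 (0.45 ± 0.17, adjusted p = 0.0318) and Des. Their summed level was 3446 to 3964 in saline libraries and 5956 to 7053 in AAV libraries, and Des, also a gene of muscle fibres, made up 2443, 2985, 2404 and 2395 of it in saline libraries and 5159, 6361, 5760.2 and 6249 in AAV libraries. None of 8 Schwann cell and nerve markers passed. The 10 muscle fibre markers showed 2 rises and 3 falls, against 19.6% and 20.8% over all genes, with a median of -0.12. The median turned to 0.16 under scaling by total reads and to 0.21 under quantile normalization (4 rises and 1 fall under each). Without AAV 2, 1 fell. The part of a lower share of fibre or vessel RNA in the falls above was not tested.

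The 4 AAV libraries differed in the strength of the response. Among the 597 genes that rose 2-fold or more, AAV 2 was the highest library for 335 and AAV 4 for 177, and AAV 1 was the lowest for 396. Among the 190 genes that fell 2-fold or more, AAV 2 was the lowest for 104 and AAV 4 for 75. AAV 2 and AAV 4 also held less transgene RNA than AAV 1 and AAV 3. Titin-linked genes did not follow that order: their mean lay 2.37 above the saline mean in AAV 3 and 2.26, 2.18 and 1.76 in AAV 2, AAV 4 and AAV 1. Interferon response genes lay 0.81 above the saline mean in AAV 4 and 0.03 to 0.25 in the other AAV libraries.

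**Figure D3:**
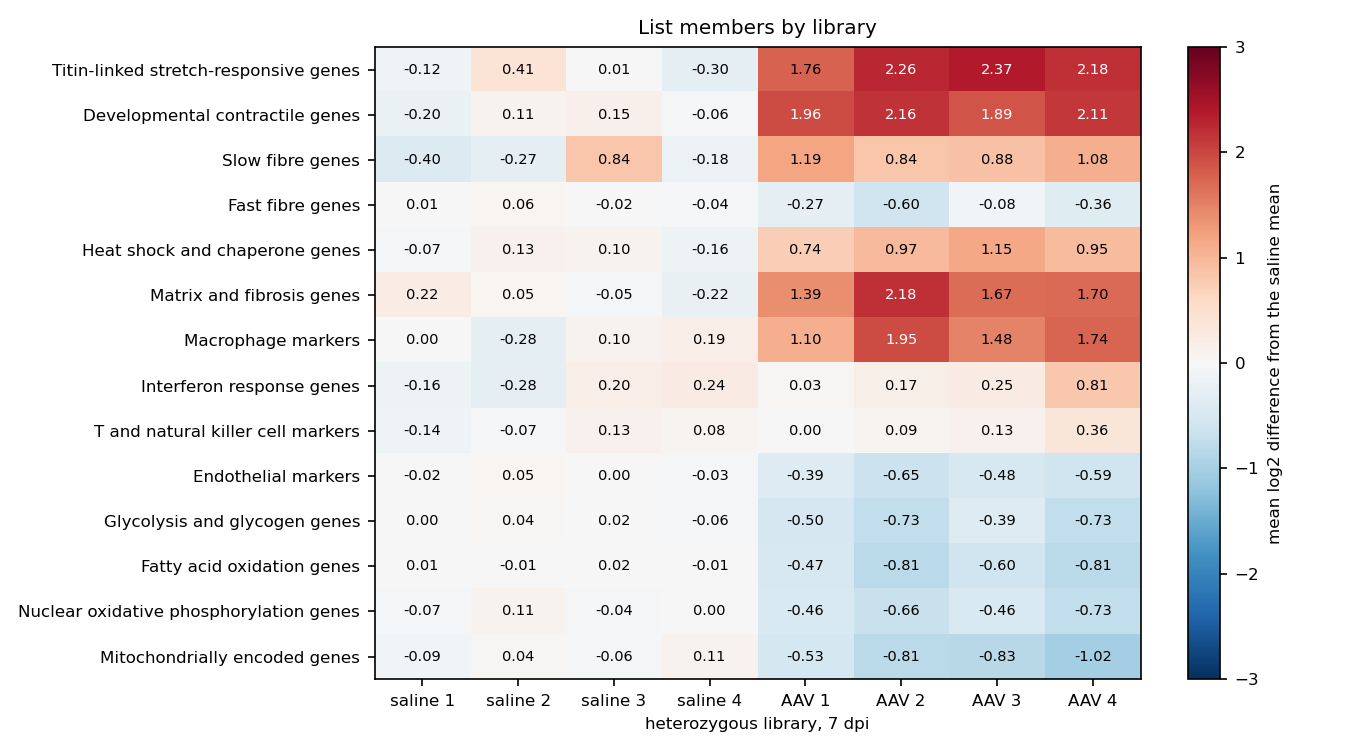
Mean log2 difference from the heterozygous saline mean over the members of 14 gene lists, in each of the 8 heterozygous libraries; red is above and blue below the saline mean. AAV 2 is highest for matrix and macrophage genes (2.18 and 1.95), AAV 4 is lowest for mitochondrially encoded genes (-1.02), and saline 3 stands out among saline libraries for slow fibre genes (0.84).

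In wild-type muscle, which has no cleavable titin, no gene passed the limma test at day 7. There 0 of 13017 genes (0%) passed in wild-type AAV against saline muscle, 210 (1.61%) had an unadjusted p under 0.05, edgeR called 0 and DESeq2 called 7. That share is small for a threshold of 0.05, so the pooled spread may be too wide here and changes may have been missed. In wild-type saline and AAV libraries the summed level of interferon response genes was 117 to 148 and 119 to 457. That of antigen presentation genes was 322 to 446 and 350 to 817. The difference between the heterozygous and the wild-type response passed for 2626 genes (20.2%), of which 1340 (10.3%) were higher and 1286 (9.88%) lower in heterozygous muscle (2501 and 522 under scaling by total reads). Ankrd1 was at 12.9, 5.19 and 9.13 in wild-type saline libraries and 3.67, 4.96, 13.3 and 5.27 in wild-type AAV libraries, and its response was 6.51 ± 0.90 greater in heterozygous muscle (adjusted p = 1.03e-06). The response was also greater for Cilp (5.21 ± 0.58, adjusted p = 1.61e-08), Postn (5.06 ± 0.55, adjusted p = 1.1e-08), Csrp3 (4.63 ± 1.01, adjusted p = 0.000853) and Krt18 (4.38 ± 0.66, adjusted p = 5.42e-06), and lower for Ces1d (-2.42 ± 0.56, adjusted p = 0.00168), Lrtm1 (-2.06), Klhl33 (-2.0) and Fam57b (-1.82). These calls rested on 1 wild-type library: G0s2 (-2.0) was lost without saline 3 (adjusted p = 0.102) and Ankrd2 (2.98) without saline 1 (0.06).

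By list, the heterozygous response exceeded the wild-type one for 10 of 13 titin-linked genes, 20 of 24 matrix genes, 13 of 16 genes of cytoskeletal repair and membranes, 7 of 10 developmental contractile genes and 10 of 20 macrophage markers. It was lower for 19 of 25 nuclear oxidative phosphorylation genes, 11 of 13 mitochondrially encoded genes, 12 of 22 fatty acid oxidation genes and 14 of 21 glycolysis and glycogen genes. For interferon response genes and T and natural killer cell markers the difference passed for none of 23 and none of 11. Over the 787 genes (6.05%) changed 2-fold or more in heterozygous muscle, the median ratio of the wild-type to the heterozygous log2 change was 0.00.

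Homozygous muscle, in which both alleles are cleavable, changed in much the same number of genes: 5616 (43.1%), of which 2687 (20.6%) rose and 2929 (22.5%) fell. The comparisons share no library. Of the genes that rose in heterozygous muscle, 1618 also rose in homozygous muscle (63.6% of the heterozygous and 60.2% of the homozygous rises), and 1910 fell in both (70.4% and 65.2%); 40 rose in heterozygous muscle and fell in homozygous muscle, and 7 did the reverse. Across genes, which are not independent replicates, the log2 changes had a Pearson r of 0.76, against -0.03 for heterozygous and wild-type changes. For the 761 genes (5.85%) changed 2-fold or more in homozygous muscle, the heterozygous change had the same sign for 740, with a median ratio of heterozygous to homozygous change of 0.75. For the 787 genes chosen in heterozygous muscle the reverse ratio was 0.74, with the same sign for 757, so each group of genes shows the smaller change in the genotype that was not used to choose it. Ces1d changed by -2.30 ± 0.38 in heterozygous and -2.70 ± 0.36 in homozygous muscle, and Postn by 4.61 ± 0.37 and 4.18 ± 0.35.

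**Figure D4:**
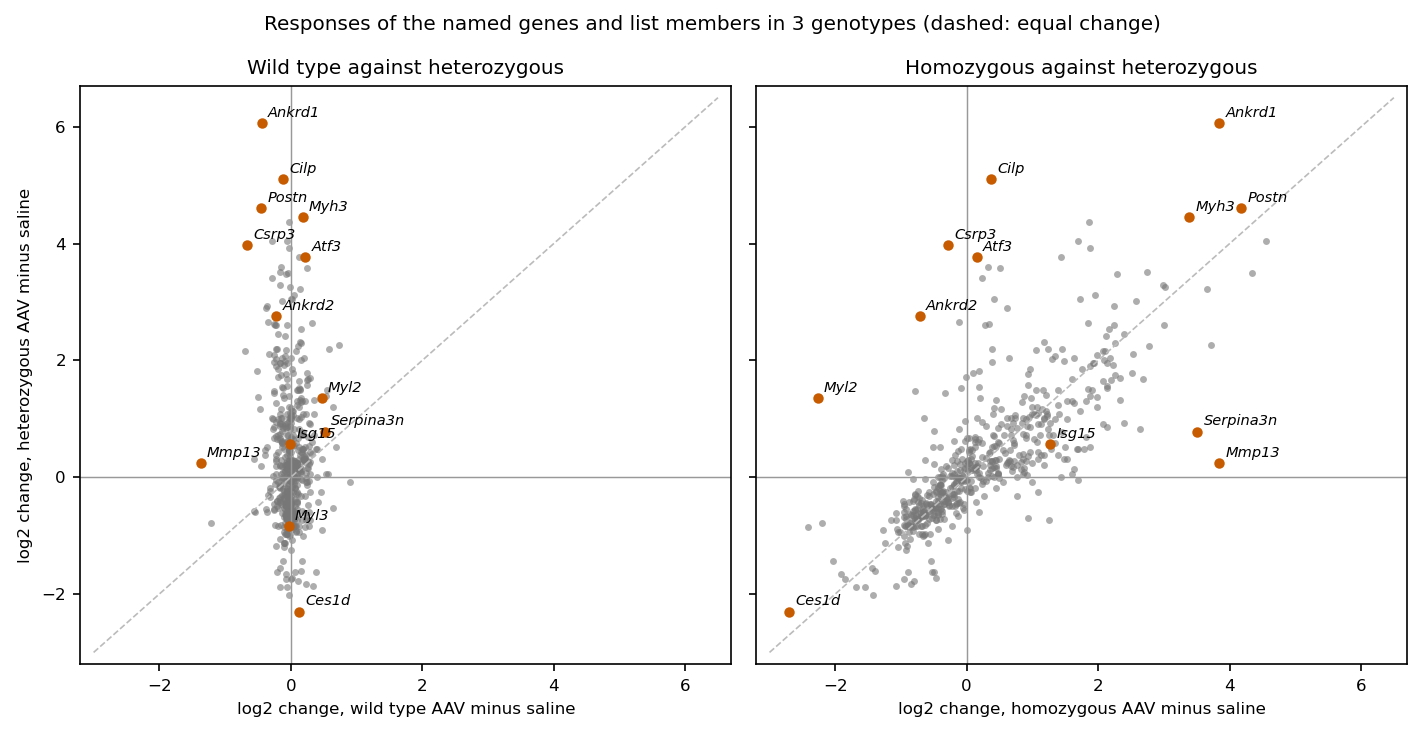
Log2 change after AAV in heterozygous muscle (vertical axes) against that in wild-type muscle (left) and homozygous muscle (right) for the named genes and list members, with a dashed line of equal change and 13 genes labelled. Points of the left panel stand near a wild-type change of 0, and those of the right panel spread along the dashed line with Cilp, Csrp3, Ankrd2, Atf3 and Myl2 above it and Mmp13 and Serpina3n below.

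Where the responses of the cleavable genotypes differed, the heterozygous response was more often the higher one. The difference passed for 422 genes (3.24%): 91 (0.699%) responded more positively in homozygous muscle and 331 (2.54%) more positively in heterozygous muscle. Under scaling by total reads that order was not kept, with 215 and 199. Homozygous saline 1 stands apart for several of these genes, and without it the counts were 278, 59 and 219. Csrp3 changed by 3.97 ± 0.68 in heterozygous and -0.28 ± 0.65 in homozygous muscle, a homozygous minus heterozygous difference of -4.25 ± 0.94, adjusted p = 0.00403. Its levels were 984, 139, 344 and 229 in homozygous saline and 279, 412, 217, 281 and 189 in homozygous AAV libraries. Homozygous saline muscle thus lay above the heterozygous saline range in 3 of 4 libraries, and every homozygous AAV library lay below every heterozygous AAV library. Cilp showed the largest difference (-4.73 ± 0.55, adjusted p = 1.58e-07); it was at 491, 501, 733 and 577 in homozygous saline libraries, a range that overlaps that of heterozygous AAV libraries, and at 955, 959, 403, 924 and 617 in homozygous AAV libraries.

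For Ankrd2 the difference was -3.48 ± 0.78, adjusted p = 0.00428, with 554, 128, 219 and 148 in homozygous saline and 155, 175, 147, 116 and 91.6 in homozygous AAV libraries, and for Atf3 -3.62 ± 0.67, adjusted p = 0.000507, with 98.0, 10.1, 29.0 and 9.68 and 19.3, 35.4, 25.1, 36.3 and 19.3. Homozygous saline 1 was the highest of its group for Csrp3, Ankrd2 and Atf3. The regulatory light chain Myl2 differed by -3.62 ± 0.90, adjusted p = 0.0121. These 5 calls held when any 1 library of the 4 groups was left out. Among titin-linked genes the heterozygous response was the greater for 8 of 13 (7 without homozygous saline 1, where Nrap was lost), Xirp2 among them (-1.68 ± 0.21, adjusted p = 1.19e-06), while Ankrd1 did not pass (-2.23 ± 0.84, adjusted p = 0.16). Hspb1 (-2.64), Eda2r (-3.18) and Myom3 (-3.27) differed in the same direction. In which part the higher levels in homozygous saline muscle set these differences was not tested.

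Among the 5 genes with the largest excess of the homozygous response were the matrix proteases Mmp13 and Mmp3. The collagenase Mmp13 was at 0.462, 1.18, 0.187 and 0.102 in heterozygous AAV and 5.75, 29.5, 65.9, 15 and 62.7 in homozygous AAV libraries, a difference in response of 3.60 ± 0.62, adjusted p = 0.00017. Serpina3n, a protease inhibitor, differed by 2.73 ± 0.35, adjusted p = 1.19e-06; it also rose in heterozygous muscle (0.78 ± 0.25, adjusted p = 0.0121), a call lost without AAV 2 (0.51, adjusted p = 0.12) and under quantile normalization (adjusted p = 0.0722). Tnfaip2 fell in heterozygous muscle (-0.74 ± 0.24, adjusted p = 0.0128), a call lost under scaling by total reads (-0.47, adjusted p = 0.126), and rose in homozygous muscle (1.26 ± 0.23, adjusted p = 2.12e-05), a difference of 2.00 ± 0.33, adjusted p = 0.00012. The stromelysin Mmp3 (1.81) and the matricellular protein Ccn5 (1.73) completed the 5 largest. In homozygous muscle rises were counted for 13 of 23 interferon response genes and 8 of 11 markers of T and natural killer cells, but the difference from heterozygous muscle passed for none of the former and for Klrk1 and Il2rb of the latter, neither of which passed without homozygous saline 1 or without any of several other single libraries. No member of the oxidative phosphorylation, mitochondrially encoded, fatty acid oxidation or glycolysis lists differed between the responses by this test, and 1 of 24 matrix genes did.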

How the data were processed

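RNA of tibialis anterior muscle was extracted with TRI reagent and made into directional libraries, per the labels' protocols. Per the submitters' processing notes, FastQC, Bowtie, RSEM and limma were used with GRCm38 (mm10); versions, parameters and the strand setting are not given in the sources used here. The deposited table holds a signal for each of 14871 genes in 56 libraries, normalised by the authors: 100% of values correspond to a whole number of reads, plus 0.5, over the library's effective size, as CPM, within 0.02 reads. RSEM estimates reads, so reads shared by near-identical genes were divided between them. Identifiers were matched to GENCODE M21 (14861 found, 10 not).

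Genes whose mean over all libraries reached 1 CPM (13017, the transgene left out) were tested with limma 3.58.1 on log2(value + 1), using its trend over intensity, a mean for each of the 14 groups and Benjamini-Hochberg adjustment at 0.05; log2 changes of genes with low values come out too small on this scale. Differences between genotypes are interaction contrasts of that fit. The transgene was tested by exact permutation in scipy 1.17.1. Alternatives were pseudocounts of 0.25 and 4, no filter and a filter of 5, median-of-ratios and quantile scaling, only the compared groups, edgeR 4.0.16, DESeq2 1.42.0 and voom on the recovered reads, each library left out in turn and the replicate number as a block; scaling by total reads was added after seeing the data. AAV and saline libraries of the same number deviated together weakly (correlations of 0.15, 0.15, 0.13 and 0.18, against -0.16 to 0.07 for unlike numbers). The labels do not say that the numbers mark pairs. The main fit is therefore unpaired, and the block is an alternative only. The test was run on simulated data with the same assumed spread for all genes, where 6 of 12817 unchanged genes were called. No changed gene was called in the wrong direction there, and error rates in the real data were not measured.

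The genes named are the 15 largest rises and 15 largest falls that passed, reached 5 CPM in the higher group and had no overlap between groups, the 5 largest differences each way between genotypes, a fixed set of genes, and up to 4 members of each list by p, with others named where a count turns on them. The comparison, the fixed genes and the lists were chosen with earlier results of these data known. RefSeq promoters were taken from GRCm38.p6.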

Additional observations from a re-analysis of the deposited data

Results flagged for a closer look

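Single libraries stood apart in 2 of the 96 groups of 4 libraries tested for a stray value, where chance gives about 1 in 20. AAV 1 was low for Atf3 in heterozygous muscle (31.3, the others 69.6 to 74.2), and saline 3 was at 33 for Magix. Atf3 kept its call without AAV 1.

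The response of heterozygous muscle differed from that of wild-type muscle, by the interaction test in limma, for Ankrd1 (6.51), Cilp (5.21), Postn (5.06), Csrp3 (4.63), Krt18 (4.38), Myh8 (4.35), Myh3 (4.28), Sln (3.53), Ankrd2 (2.98), Col1a1 (2.66), Adgre1 (2.03), Cdkn1a (1.61) and Trim63 (0.85), all with the higher response in heterozygous muscle on the log2 scale. The response was lower there for Ces1d (-2.42), Lrtm1 (-2.06), G0s2 (-2.0), Klhl33 (-2.0), Fam57b (-1.82), Nos1 (-1.32) and Ppargc1a (-0.96).

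Against homozygous muscle, in homozygous minus heterozygous log2 terms, the response differed for Mmp13 (3.60), Serpina3n (2.73), Tnfaip2 (2.00), Mmp3 (1.81) and Ccn5 (1.73), and for Cilp (-4.73), Csrp3 (-4.25), Myl2 (-3.62), Atf3 (-3.62), Ankrd2 (-3.48) and Myl3 (-2.82). The call of Myl3 was lost without heterozygous AAV 3 (adjusted p = 0.0524).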

How the results depend on the processing

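Counts of genes for heterozygous AAV against saline muscle stayed within 1.5 times the reported ones under all alternatives but scaling by total reads, which gave 4988 rises and 1014 falls, 2501 and 522 genes with a higher and a lower response than wild-type muscle, and 215 and 199 with a higher and a lower response in homozygous than in heterozygous muscle. With only the 4 compared groups in the fit, 181 genes had the higher response in homozygous muscle. DESeq2 called 7 genes in wild-type muscle, where every other setting called 0. Leaving out 1 library at a time gave 4318 to 5172 genes for heterozygous muscle (2095 to 2479 rises, 2223 to 2693 falls), 1974 to 2811 for its difference from wild-type muscle and 278 to 433 for its difference from homozygous muscle (59 to 94 higher, 219 to 344 lower), the lowest without homozygous saline 1. Under quantile normalization the sign turned for Ttn (0.26), Tnnt3 (0.24), Ckm (0.08) and the medians of titin partners (0.01) and fibre markers (0.21); scaling by total reads turned those medians to 0.05 and 0.16. The cause was not tested. With the replicate number as a block, the fit gave 5220 calls (2538 rises, 2682 falls), 2275 against wild type and 297 against homozygous muscle (69 and 228). It changed no named call beyond those of Myl2 and Csf3r. Of 187 named genes, 157 kept their call under all 20 settings, 18 lost it and 11 gained it under at least 1. Small changes can be missed with 4 libraries a group: 34.3% of simulated 1.5-fold changes were recovered. Neither depth nor the assumed spread was varied there.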

Other observations

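The clock gene Arntl, which encodes the activator BMAL1, rose in heterozygous muscle (1.01 ± 0.27, adjusted p = 0.00268 by limma), while 4 of 14 clock genes fell, against 20.8% over all genes (2 fell under scaling by total reads and 9 with only the compared groups in the fit). It stood at 3.02, 4.9, 5.32 and 4.61 in heterozygous saline and 6.93, 10.7, 10.6 and 12.0 in heterozygous AAV libraries, against 30.4, 24.8 and 8.80 in wild-type saline and 42.2, 29.2, 26 and 22.1 in homozygous saline libraries. Every heterozygous saline library was thus below every saline library of the other genotypes. The clock repressor Nr1d2 was at 248, 229, 230.2 and 236 in heterozygous saline libraries and 147, 155 and 214 in wild-type ones, and fell after AAV in heterozygous muscle (-0.72 ± 0.13, adjusted p = 1.23e-05).

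Lysosome and autophagy genes rose in part, 10 of 19 with 2 falling (median 0.30; 13 and none under scaling by total reads), with the hexosaminidase subunit Hexa at 0.87 ± 0.14, adjusted p = 1.81e-06 and the cathepsin Ctsz at 1.06 ± 0.21, adjusted p = 0.000105. Of 18 ribosome biogenesis genes 3 rose and 1 fell (10 and none under scaling by total reads, and 1 rose without saline 1). Over all genes 19.6% rose and 20.8% fell. The nucleolar protein Dkc1 was the one that fell (-0.40 ± 0.10, adjusted p = 0.00142, and 0.298 under scaling by total reads). Of 7 tendon cell markers 2 rose and 1 fell, against 19.6% and 20.8% over all genes. Among those that rose, the matrix protein Thbs4 was at 38.7, 60.2, 39.3 and 25.5 in saline libraries and 132, 262, 130.2 and 128 in AAV libraries (1.96 ± 0.36, adjusted p = 2.71e-05).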
